A study of Homo sapiens with 6 samples.

Results

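The 46 genes described here encode nuclear receptors, among them the retinoic acid, retinoid X, thyroid hormone, vitamin D and steroid receptors, and were taken from 20033 protein-coding genes by name. For each gene, ChIP-seq peaks were counted when they touched the gene body (GENCODE 44, hg38) or lay within 10 kb of it. Chromatin immunoprecipitation with sequencing was done on SH-SY5Y cells, a human neuroblastoma line, that stably expressed 82-kDa ChAT, the nuclear form of the acetylcholine-synthesizing enzyme choline acetyltransferase. All cells were differentiated for 3 d with retinoic acid and then received oligomers of Aβ1–42 at 100 nM or, as vehicle, Ham's F-12 medium alone for 4 h, with 3 plates for each treatment. An antibody raised in-house to the C-terminus of ChAT or an antibody to SATB1, a nuclear protein that binds AT-rich DNA and organizes chromatin, was used on each. There was 1 library for each protein and treatment, so the treatments are compared by description and no p-value was computed. Both proteins shared the input of the same treatment, and cells without retinoic acid were not analysed here.

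Most nuclear receptors are transcription factors that bind DNA directly, and many of them bind a small lipophilic ligand. Retinoic acid receptors (RARA, RARB, RARG) work as dimers with retinoid X receptors on paired hexamers related to AGGTCA, together with corepressors when ligand is absent and coactivators when it is present. Retinoic acid is widely used to push SH-SY5Y cells toward a neuronal state, and RARB is itself a well-known retinoic acid target gene.

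Peaks lay near 18 of the 46 genes, and 28 had none in any list. Over the 4 lists there were 41 peaks, where 51.3 were expected if the peaks of each list had been spread evenly over the determined bases of each chromosome. The ratio of observed to expected was 0.799, with an exact Poisson interval at 95% of 0.574 to 1.08. All intervals given here cover counting error only, and the files do not hold the read depth of each library. RARB held 9 of the 41 peaks and VDR was the only gene with a peak in all 4 lists.

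Sequence is shown for the 4 stretches that 2 lists shared and for the highest-scoring peak of 82-kDa ChAT and of SATB1 after vehicle, because the position results turn on these sites. All are written on the plus strand of hg38. In the first group the capitals mark hexamers of the receptor type, searched on both strands. The letters searched were AGGTCA, its variant GGGTCA with a changed first base, its variant AGTTCA with a changed inner base, and GGTTCA with both changes. The NR6A1 stretch is chr9:124698705-124698902, the RARB stretch is chr3:24844544-24844717 and the ESRRB peak is chr14:76471452-76471597.
NR6A1, 82-kDa ChAT and SATB1 after vehicle: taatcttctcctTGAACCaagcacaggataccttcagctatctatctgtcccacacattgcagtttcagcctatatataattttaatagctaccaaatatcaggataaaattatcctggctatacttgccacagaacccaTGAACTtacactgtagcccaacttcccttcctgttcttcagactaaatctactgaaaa
RARB, 82-kDa ChAT and SATB1 after vehicle: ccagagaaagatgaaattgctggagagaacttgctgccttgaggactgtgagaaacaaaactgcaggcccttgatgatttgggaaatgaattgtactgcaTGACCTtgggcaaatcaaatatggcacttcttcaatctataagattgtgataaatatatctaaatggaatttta
ESRRB, SATB1 after vehicle: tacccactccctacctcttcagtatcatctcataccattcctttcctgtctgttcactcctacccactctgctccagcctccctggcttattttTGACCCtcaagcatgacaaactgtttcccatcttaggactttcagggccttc
These 3 hold 2, 1 and 1 hexamers.

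In the next pair the capitals mark the longest perfect inverted repeat, in which the right arm is the reverse complement of the left arm. The RARB stretch is chr3:25284385-25284527 and the THRB peak is chr3:24502475-24502531.
RARB, 82-kDa ChAT after vehicle and after Aβ1–42: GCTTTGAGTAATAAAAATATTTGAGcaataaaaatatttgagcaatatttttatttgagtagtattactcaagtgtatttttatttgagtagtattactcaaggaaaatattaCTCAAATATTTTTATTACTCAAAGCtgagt
THRB, 82-kDa ChAT after vehicle: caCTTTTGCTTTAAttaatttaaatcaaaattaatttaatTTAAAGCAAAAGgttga
The RARB arms are 25 bases long with 88 bases between them, and 22.4% of the stretch is G or C. The THRB arms are 12 bases long with 26 bases between them in a peak that is 17.5% G or C.

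The last stretch, at VDR, held neither feature and has no capitals. It is chr12:47952701-47952901.
VDR, 82-kDa ChAT and SATB1 after vehicle: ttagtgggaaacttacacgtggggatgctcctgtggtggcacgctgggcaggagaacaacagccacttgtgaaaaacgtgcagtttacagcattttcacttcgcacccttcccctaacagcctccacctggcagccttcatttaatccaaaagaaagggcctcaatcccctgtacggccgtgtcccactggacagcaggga
It is 53.7% G or C.

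The number of peaks at nuclear receptor genes was first compared with the number expected from their length. 82-kDa ChAT had 15 peaks after vehicle against 15.6 expected, a ratio of 0.961 (0.538 to 1.58). After Aβ1–42 it had 13 against 15.1 expected, a ratio of 0.86 (0.458 to 1.47). SATB1 had 6 peaks after vehicle against 6.52 expected, a ratio of 0.92 (0.338 to 2). After Aβ1–42 it had 7 against 14.1 expected, a ratio of 0.498 (0.2 to 1.03). All 4 intervals include 1 and are wide, so at this flank a difference from the length-based number was not detectable in any list. The value for SATB1 after Aβ1–42 depended on the flank. It was 0.885, from 19 peaks, with flanks of 50 kb and 0.41, from 5 peaks, with the gene body only. With 10 kb flanks and the expected number taken from the density in protein-coding regions, it was 0.432. At 50 kb 82-kDa ChAT after Aβ1–42 had the lowest ratio, 0.794. The same ratio over all protein-coding genes (10 kb flanks) was 1.08 (1.04 to 1.11) for SATB1 after Aβ1–42. In the other 3 lists the ratio over all protein-coding genes was 0.848 and 0.943 for 82-kDa ChAT and 0.829 for SATB1 after vehicle.

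**Figure D1:**
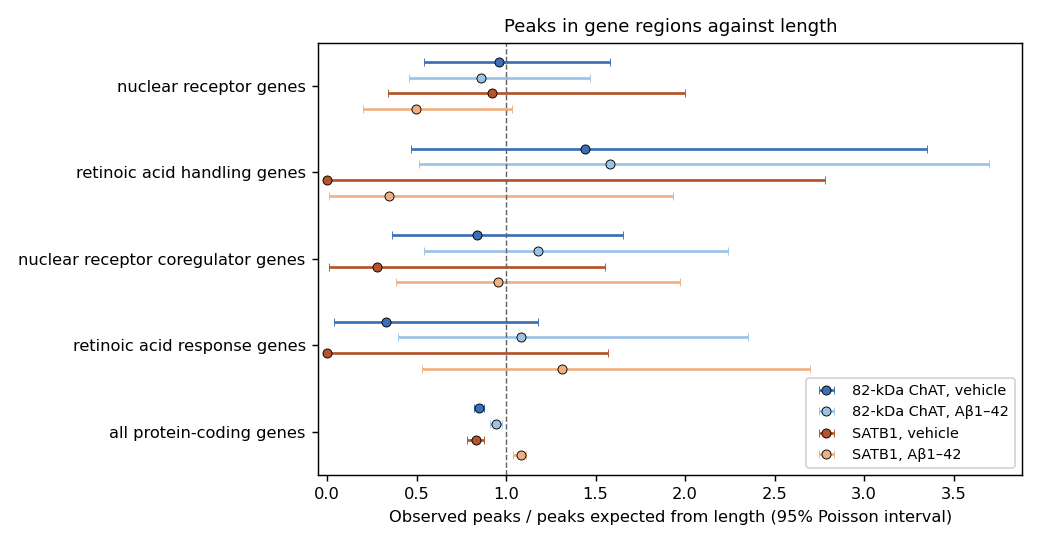
Observed peaks divided by the peaks expected from length (horizontal axis) for nuclear receptor genes, 3 related gene lists and all protein-coding genes. Points are single libraries and bars are exact Poisson intervals at 95%; for nuclear receptor genes the points run from 0.498 (SATB1, Aβ1–42) to 0.961 (82-kDa ChAT, vehicle).

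Counted by gene, 82-kDa ChAT peaks lay near 10 members (21.7%) after vehicle, where 14.2% of all protein-coding genes had one, and near 8 (17.4%) after Aβ1–42, where 14.9% did. SATB1 peaks lay near 6 members (13%) after vehicle against 6.29% of all protein-coding genes, and near 8 (17.4%) after Aβ1–42 against 17.0%. Nuclear receptor genes are longer than most, with a median body of 53568 bases against 27471, and length-based expectation gave 11.3, 10.9, 5.61 and 10.4 members in the same order. All 4 counts lay within 3 genes of that expectation. Of the 18 members with a body of at least 100 kb, 13 had a peak in any list (72.2%, exact Clopper-Pearson interval 46.5 to 90.3), beside 71.9% of 3667 protein-coding genes of that size. Of the 28 shorter members, 5 did (17.9%, 6.06 to 36.9), beside 29.4% of 16366 genes.

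The share of peaks that came from each treatment was compared next. For SATB1, the Aβ1–42 list supplied 7 of the 13 peaks at members (53.8%, 25.1 to 80.8), against 73.4% at all protein-coding genes and 67% of all peaks. For 82-kDa ChAT it supplied 13 of 28 (46.4%, 27.5 to 66.1), against 49.3% at protein-coding genes and 46% of all peaks. Both intervals include the background shares. Neither difference between members and background was tested, and with 1 library a group the treatment and the library cannot be told apart.

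The retinoic acid receptors are the receptors of the ligand used on these cells, and all of their peaks lay at RARB. RARB had 5 peaks of 82-kDa ChAT after vehicle (1.63 expected) and 3 after Aβ1–42 (1.79 expected). It had 1 of SATB1 after vehicle (0.746 expected) and 0 after Aβ1–42 (1.49 expected). RARA, the broadly expressed receptor, and RARG had 0 peaks in every list, with 0.886 and 0.29 expected over the 4 lists. RARB is the longest member at 910046 bases, and without it the 82-kDa ChAT ratios were 0.715 after vehicle and 0.751 after Aβ1–42.

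All 9 RARB peaks lay before the start of its MANE Select transcript, the transcript chosen as representative of the gene. They lay in introns of longer transcripts that begin farther upstream. Most of the gene body lies there too, as it runs from -740.376 to 169.670 kb around that start. The 82-kDa ChAT peaks after vehicle were at chr3:24844544-24844721, chr3:25185619-25185789, chr3:25269998-25270104, chr3:25284382-25284527 and chr3:25392868-25392970. Their scores, which are 10 times the negative log10 of the peak caller's p-value, were 64.76, 50.88, 56.65, 88.65 and 112.57. The last of them lay nearest to that start, at 35344 bases before it, and had the highest score. After Aβ1–42 the peaks were at chr3:25284385-25284529, chr3:25334109-25334241 and chr3:25341274-25341370, with scores of 57.74, 51.18 and 77.22. In the middle one of these 78.3% of the 51-base words occur more than once in the genome. The SATB1 peak after vehicle, chr3:24844538-24844717, had a score of 52.91.

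Among those RARB positions, 2 were found in more than 1 list. The first, 583630 bases before the MANE Select start, was held by 82-kDa ChAT and SATB1 after vehicle, with 174 bases in common and 1 AGGTCA hexamer on the minus strand. The other, 143808 bases before that start, was held by 82-kDa ChAT after both treatments, with 143 bases in common. It was the only position at these genes kept by 82-kDa ChAT across treatments, and it is the AT-rich inverted repeat printed above. Over the whole peak after vehicle the arms of that repeat reach 28 bases. A second RARB peak of 82-kDa ChAT after Aβ1–42, chr3:25341274-25341370, also held an inverted repeat, with arms of 13 bases.

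**Figure D2:**
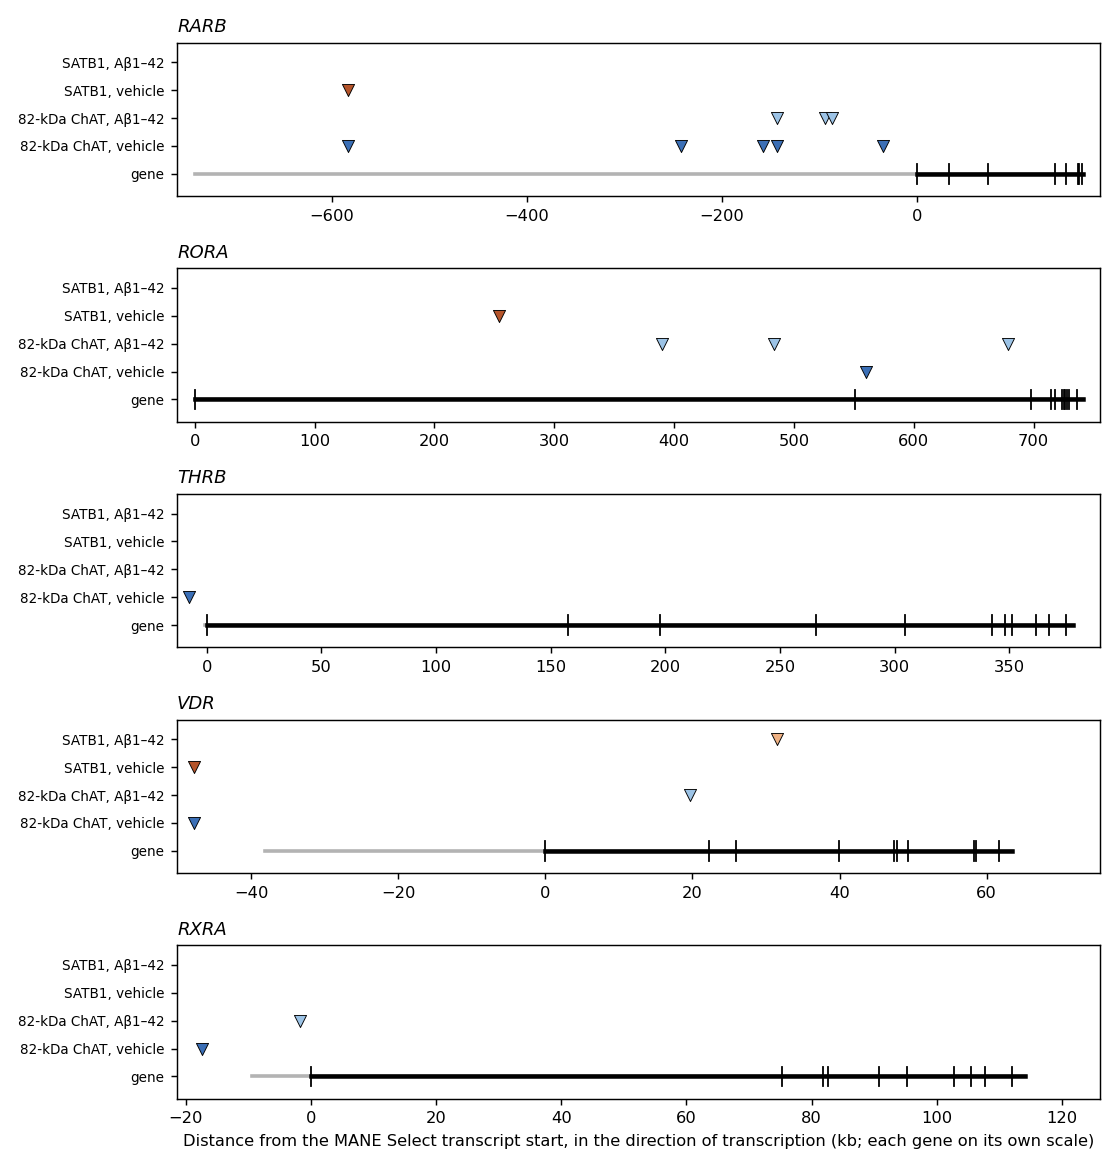
Peak positions (triangles, 1 row for each list) along RARB, RORA, THRB, VDR and RXRA, in kb from the MANE Select start in the direction of transcription, each gene on its own scale. Black lines are the MANE Select transcript with exons as ticks and grey lines the rest of the gene body. All 9 RARB peaks stand left of 0 and all 5 RORA peaks right of it. The bodies lie mostly on those sides, at -740.376 to 169.670 kb for RARB and -0.001 to 741.018 kb for RORA.

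The retinoid X receptors are the common dimer partners of retinoic acid, thyroid hormone and vitamin D receptors. RXRA had 1 peak of 82-kDa ChAT after each treatment, at different places. The vehicle peak, chr9:134308923-134309170, lay 7928 bases outside the gene body on the upstream side with a score of 70.42. The Aβ1–42 peak, chr9:134324693-134324833, lay 1692 bases before the MANE Select start with a score of 58.56, and 15522 bases separated the pair. It was the only 82-kDa ChAT peak after Aβ1–42 at these genes within 2000 nt of an annotated start. RXRB and RXRG had 0 peaks, with 0.161 and 0.582 expected over the 4 lists.

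The thyroid hormone receptors bind triiodothyronine. THRB had 1 peak, of 82-kDa ChAT after vehicle, against 2.43 expected over the 4 lists. It lay 6719 bases upstream of the gene body and its score of 130.74 was the highest of all peaks at nuclear receptor genes, at percentile 93.4 of its list. An antisense RNA gene, THRB-AS1, lies at the same place, and peaks carry no strand. The peak near THRA, chr17:40102594-40102740, was a SATB1 peak after Aβ1–42 that fell in the 10 kb beyond the gene's end, and the same peak lay 2005 bases upstream of NR1D1 (REV-ERBα, a repressor of the circadian clock). It matched a copy of Alu, the most abundant short interspersed repeat of the human genome, and its score of 94.61 stood at percentile 95.4 of its list. It counts for both genes but as 1 peak, which is why 8 members had a SATB1 peak after Aβ1–42 from 7 peaks.

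RORA, a clock and lipid-related receptor that is 741019 bases long, had 5 peaks against 4.8 expected. All lay inside introns 1 and 2 of the MANE Select transcript. Those introns make up most of the gene, and the exon that follows them begins 697.450 kb after the MANE Select start. After vehicle 82-kDa ChAT had 1, chr15:60669467-60669620, with a score of 76.74. After Aβ1–42 it had 3, at chr15:60550867-60550945, chr15:60745996-60746117 and chr15:60839584-60839702, with scores of 61.41, 71.65 and 62.15, the first of them also inside the antisense gene RORA-AS1. The SATB1 peak after vehicle was chr15:60975701-60975849, with a score of 64.99. No RORA position was shared between lists, and the shortest distance between peaks of 82-kDa ChAT in the 2 treatments was 76375 bases. RORB had 0 peaks with 1.49 expected, and NR1D2 had 0 with 0.337 expected.

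VDR, the vitamin D receptor, had 1 peak in each list, 4 in all, against 0.831 expected over the 4 lists. After vehicle the 82-kDa ChAT peak (chr12:47952687-47952911, score 88.29) and the SATB1 peak (chr12:47952701-47952901, score 51.22) shared 201 bases, 9639 and 9653 bases upstream of the gene body. After Aβ1–42 the 82-kDa ChAT peak was in intron 1 (score 61.41) and the SATB1 peak in intron 3 (score 115.67), 11664 bases apart. So the vehicle position was shared and the Aβ1–42 positions were not. The SATB1 peak after Aβ1–42 stood at percentile 98.9 of its list and matched an Alu copy. All of its 51-base words (100.0%) occur more than once in the genome, so reads from other copies cannot be told apart from reads of this one. The vehicle peaks were near the outer edge of the 10 kb flank and would be lost with a shorter flank.

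The other sensors of lipids, bile acids and foreign compounds had few peaks. HNF4G, a receptor of gut epithelium, had 2 peaks of 82-kDa ChAT after vehicle (scores 53.93 and 72.62) against 1.07 expected over the 4 lists, both in introns of transcripts that begin before the MANE Select start. PPARA, PPARD, PPARG, NR1H2, NR1H3, NR1H4, NR1I2, NR1I3 and HNF4A had 0 in every list. With VDR included, the 11 genes of this group had 6 peaks against 8.36 expected, and 4 of the 6 lay at VDR (0.831 expected).

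The steroid and estrogen-related receptors had 8 peaks against 16.8 expected. Among the receptor groups described here this one was farthest below the length-based number. That ranking was not tested, and no interval was computed for single groups. NR3C2, the mineralocorticoid receptor, had 0 peaks over 365937 bases with 2.72 expected, and ESR1, an estrogen receptor, had 1 against 2.94. That ESR1 peak, of 82-kDa ChAT after Aβ1–42, consists wholly of 51-base words found more than once in the genome (100.0%). ESRRG, an orphan receptor of energy metabolism, had 2 against 5.91, 1 of 82-kDa ChAT after vehicle (score 81.41) and 1 of SATB1 after Aβ1–42 (score 61.60), which lay 12424 bases apart. ESR2, the other estrogen receptor, was above expectation with 3 against 1.74: 2 of 82-kDa ChAT and 1 of SATB1, all after Aβ1–42, with scores of 61.41, 58.22 and 69.29. NR3C1, the glucocorticoid receptor, had 1 SATB1 peak after Aβ1–42 in intron 2 (score 99.37, percentile 96.6). ESRRB, known for its part in pluripotent cells, had 1 SATB1 peak after vehicle in intron 3 (score 65.50), the highest of SATB1 after vehicle at these genes. ESRRA and PGR, the progesterone receptor, had 0. In this group 82-kDa ChAT had 1 peak after vehicle and 3 after Aβ1–42, against 5.02 and 5.05 expected. SATB1 had 1 and 3, against 2.22 and 4.46, so each list was below its length-based number.

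Among the 15 other orphan receptors, 5 had peaks, 9 in all against 7.73 expected. NR5A2, a receptor of liver and early embryo, had 1 peak of 82-kDa ChAT after vehicle (4275 bases upstream), 1 after Aβ1–42 (intron 5) and 1 of SATB1 after Aβ1–42 (intron 7). NR6A1, the germ cell nuclear factor, had 82-kDa ChAT and SATB1 peaks after vehicle in intron 2 that shared 198 bases, at chr9:124698684-124698902 (score 67.50) and chr9:124698705-124698935 (score 55.80). NR2C1, a testicular orphan receptor known as a repressor, had the highest 82-kDa ChAT score after Aβ1–42, 118.57 (intron 9), at percentile 98.5 of that list. It also had a SATB1 peak after vehicle in intron 1, chr12:95067933-95068049 (score 63.31), 607 bases before the start of a shorter transcript. NR0B2 (SHP), the shortest member at 2487 bases, had 1 peak of 82-kDa ChAT after vehicle, chr1:26915845-26915950 (score 89.21), 1923 bases before its start and inside the body of the neighbouring gene NUDC. NR2F6, a relative of the COUP factors, had 1 SATB1 peak after Aβ1–42, 2458 bases beyond its end (score 60.70). The NR4A genes, immediate early genes of neurons, and NR2F1, NR2F2, NR2E1, NR2E3, NR2C2, NR0B1 and NR5A1 had 0.

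**Figure D3:**
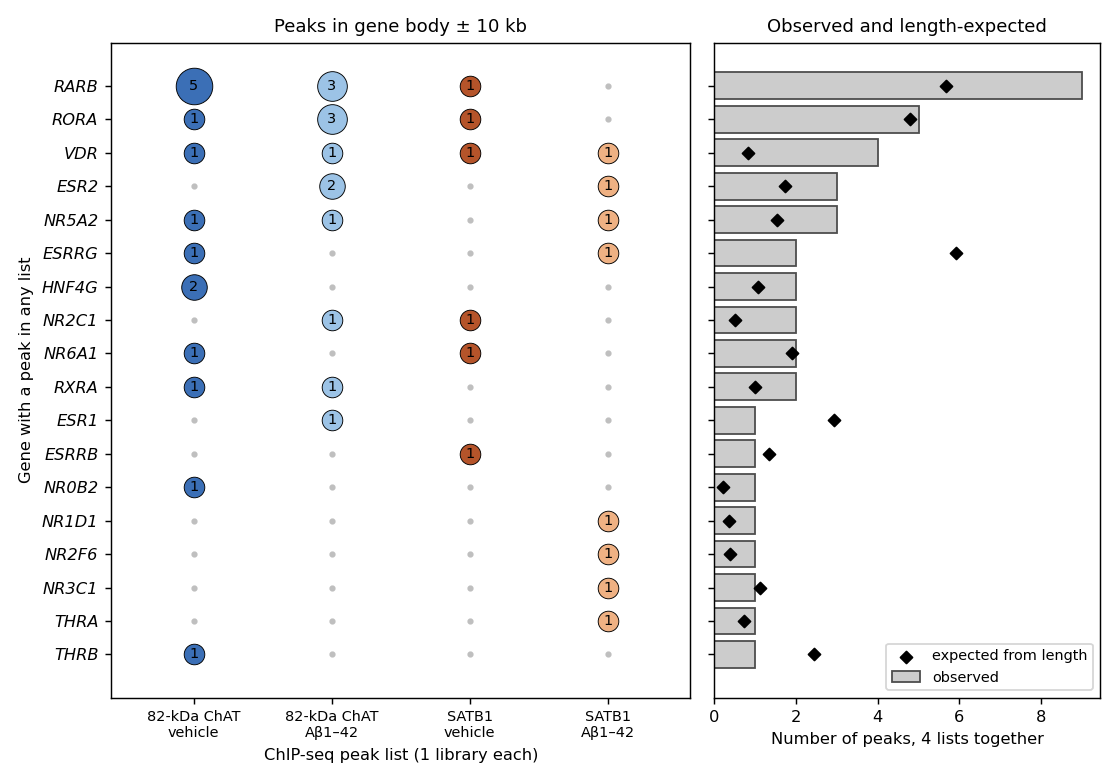
Left, peaks within 10 kb of each of the 18 genes with a peak (circle size and number; grey dots are 0) in each list; right, observed peaks over the 4 lists (bars) with the number expected from length (diamonds). RARB has 9 against 5.67 and ESRRG 2 against 5.91; the NR1D1 and THRA circles are the same peak.

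Peaks of both proteins, in any treatment, lay near 8 members (17.4%, 7.82 to 31.4) beside 8.97% of all protein-coding genes, and gene length with independent placement gave 7.84. After vehicle 4 members had both proteins, beside 2.98% of all genes and 2.52 members expected, and after Aβ1–42 3 did, beside 4.38% and 4.24 expected. Both treatments gave a peak of 82-kDa ChAT at 5 members (4.19% of all genes, 4.56 expected) and of SATB1 at 1, VDR (1.99% of all genes, 2.33 expected). Each of these counts lay within 2 genes of the length-based number. By position there was much less sharing: 8 of the 41 peaks shared a base with a peak of another list, in 4 pairs. Of those pairs, 3 joined 82-kDa ChAT and SATB1 after vehicle (RARB, VDR and NR6A1) and 1 joined the treatments of 82-kDa ChAT (RARB). For SATB1 after vehicle, 3 of 6 peaks (50%) were shared against 24.5% of that list. The other shares were 4 of 15 (26.7%) against 14.1% for 82-kDa ChAT after vehicle, 1 of 13 (7.69%) against 8.79% after Aβ1–42 and 0 of 7 against 5.11% for SATB1 after Aβ1–42.

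Of the 41 peaks, 33 lay in a gene body and 8 in a flank, and none touched an annotated exon of its gene. The 82-kDa ChAT peaks differed in place between the treatments. After vehicle, 13 of 15 (86.7%, 59.5 to 98.3) lay before the MANE Select start, 5 of them in the upstream flank, whereas 30.3% of the length of the regions lies there. After Aβ1–42, 5 of 13 did (38.5%, 13.9 to 68.4), none of them in the flank. At all protein-coding genes the shares were 17.8% and 19.9%, where 18.5% of the length lies before that start. Without RARB, which supplied 5 and 3 of these peaks, the shares were 8 of 10 (80%, 44.4 to 97.5) and 2 of 10 (20%, 2.52 to 55.6), with 22.9% of the length. SATB1 peaks lay there in 2 of 6 cases after vehicle and for 2 of 8 gene and peak pairs after Aβ1–42. This difference was noticed in these data and was not tested.

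**Figure D4:**
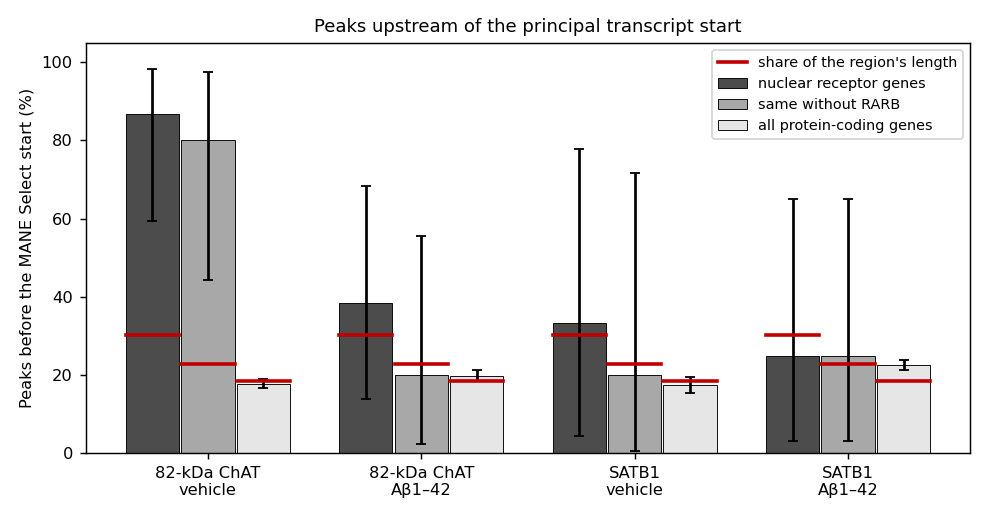
Share of peaks before the MANE Select start in percent for each list at nuclear receptor genes, at the same genes without RARB and at all protein-coding genes, with exact Clopper-Pearson intervals at 95% and red lines at the share of region length. The bar for 82-kDa ChAT after vehicle stands at 86.7 and after Aβ1–42 at 38.5.

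Peaks near a start were few. Within 2000 nt of any annotated start, 1 member had a peak in each list but that of SATB1 after Aβ1–42, which had 0. That is 2.17% of members, against 2.13% and 2.43% of protein-coding genes for 82-kDa ChAT and 0.809% and 2.52% for SATB1. The genes were NR0B2, RXRA and NR2C1.

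The sequence of the peaks was then set beside that of all peaks of the same list. All 7 SATB1 peaks after Aβ1–42 matched an Alu copy, and 5 of them were made mostly of 51-base words found more than once in the genome. Over that whole list 75.2% matched an Alu copy, and over its peaks at all protein-coding genes 82.3% did. In the other lists the Alu matches were 1 of 15, 3 of 13 and 1 of 6, against 6.21%, 11.5% and 5.93%. With Alu-matching peaks left out, SATB1 had 0 peaks at nuclear receptor genes after Aβ1–42 and 5 members with a peak after vehicle.

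At least 1 receptor-type hexamer was found in 16 of the 41 peaks. By list these were 4 of 15 (all peaks 18.4%), 2 of 13 (21.8%), 4 of 6 (22.5%) and, for SATB1 after Aβ1–42, 6 of 7 (64.9%). Hexamers went with Alu matches: in the last list 79.1% of 4405 Alu-matching peaks had a hexamer and 22% of the other 1452. The 4 SATB1 peaks after vehicle with a hexamer were those at ESRRB, NR2C1, NR6A1 and RARB, and 1 of them (NR2C1) matched an Alu copy. None of the 41 peaks held a pair of hexamers in the same direction with 1 to 5 bases between them. Dimers with retinoid X receptors bind this arrangement, and hexamer pairs in opposite directions were not counted. Same-direction pairs were rare in all peaks too, at 0.282% and 0.536% for 82-kDa ChAT after vehicle and Aβ1–42, and at 0.347% and 4.17% for SATB1. Their absence at these genes was not tested. The letters TCCAT or TCCCAT, which also occur in pentamer satellite repeats, were in 13 peaks: 3 of 15, 5 of 13, 3 of 6 and 2 of 7, against 41.2%, 31.1%, 37.4% and 18.2% of all peaks.

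Inverted repeats were counted after those at RARB and THRB had been seen. An inverted repeat with arms of at least 12 bases was in 2 of 15 and 2 of 13 of the 82-kDa ChAT peaks and in none of the SATB1 peaks at these genes. The same was found in 11.9% (11.2 to 12.7) of all 82-kDa ChAT peaks after vehicle and in 9.06% after Aβ1–42, and in 3.12% and 4.37% of all SATB1 peaks. In windows of the same length 1 kb beyond each peak the shares were 1.33%, 0.696%, 0.942% and 0.736%. The shares at nuclear receptor genes were 13.3% (1.66 to 40.5) and 15.4% (1.92 to 45.4) for 82-kDa ChAT, and these intervals include the shares of the lists.

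Scores were spread over the whole range, and 19 of the 41 stood above the median of their list. The 6 SATB1 peaks after vehicle all stood below it, the highest at percentile 48.5. Among the 7 SATB1 peaks after Aβ1–42, those at VDR, NR3C1 and NR1D1 stood above percentile 95, and the others between 16.7 and 64.

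**Figure D5:**
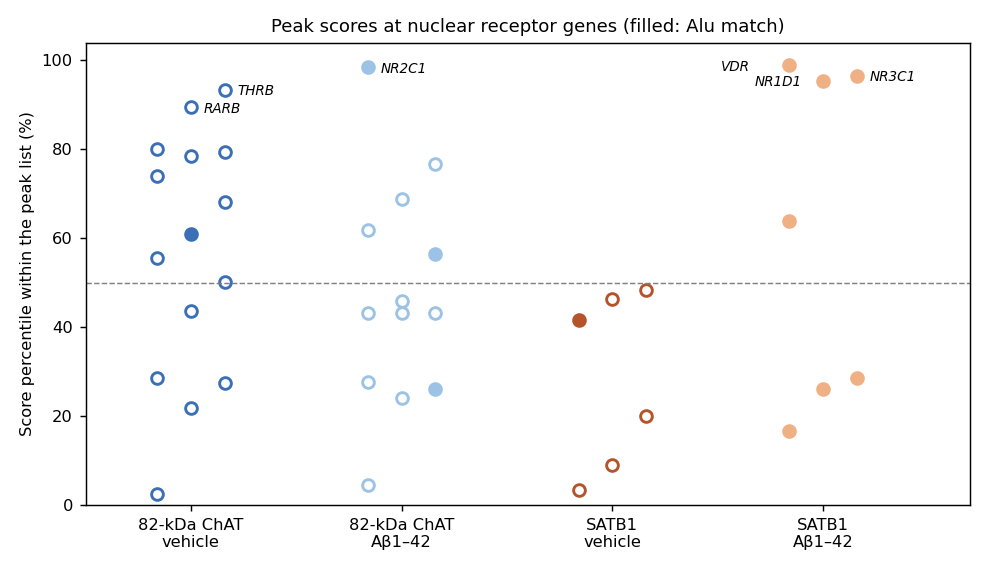
Score percentile within its own list (vertical axis, percent) of each of the 41 peaks, by list, with Alu-matching peaks filled. The SATB1 peaks after vehicle lie between 3.56 and 48.5, and all 7 SATB1 peaks after Aβ1–42 are filled.

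Genes that supply or use the receptors' ligand and partners were counted in the same way. Of 19 genes that make, carry or degrade retinoic acid, 82-kDa ChAT peaks lay near 4 (21.1%) after vehicle and 5 (26.3%) after Aβ1–42. There were 5 peaks each against 3.48 and 3.16 expected. SATB1 peaks lay near 0 and 1 (5.26%). Gene length gave 2.85 and 2.61 such genes for 82-kDa ChAT and 1.24 and 2.4 for SATB1. Over all protein-coding genes 14.2% and 14.9% had an 82-kDa ChAT peak, and 6.29% and 17% a SATB1 peak. STRA6, the cell surface receptor for the retinol carrier, had 1 peak of 82-kDa ChAT after each treatment against 0.333 expected over the 4 lists. ALDH1A2, which makes retinoic acid, had 2 and 1, against 3.56 expected over the 4 lists. Of 21 coregulator genes, 82-kDa ChAT peaks lay near 5 and 8 (8 and 9 peaks against 9.53 and 7.62). SATB1 peaks lay near 1 and 6 of them (1 and 7 peaks against 3.59 and 7.32). Gene length gave 7.34 and 6.19 coregulator genes with a peak for 82-kDa ChAT and 3.24 and 5.99 for SATB1.

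The corepressor gene NCOR1, whose product holds unliganded receptors inactive, had 1 peak of 82-kDa ChAT after each treatment. Over the 4 peak lists 2.71 were expected there. Among other parts of that repressor machinery, TBL1X had 2 peaks of 82-kDa ChAT after vehicle and 2 of SATB1 after Aβ1–42, with 1.8 expected. TBL1XR1, a close relative of TBL1X, and NRIP1, a ligand-dependent corepressor, each had 1 of 82-kDa ChAT and 1 of SATB1, all after Aβ1–42. The expected numbers for TBL1XR1 and NRIP1 were 1.39 and 1.51. At 17 genes known to respond to retinoic acid, 82-kDa ChAT had 2 peaks after vehicle against 6.11 expected and 6 after Aβ1–42 against 5.55. SATB1 had 0 against 2.36 and 7 against 5.33. STRA6 is in this list and in that of the genes that handle retinoic acid, so its peaks count in both. NAV2, a guidance-related gene, had 2 of 82-kDa ChAT and 1 of SATB1, and NTRK2, the BDNF receptor, 1 of each, all after Aβ1–42. These were fewer than the 5.26 and 3.1 expected over the 4 peak lists at NAV2 and NTRK2. TGM2, a transglutaminase, had 1 of 82-kDa ChAT after each treatment, against 0.585 expected over the 4 peak lists. All intervals of these 3 gene lists included a ratio of 1. The values 1.44 and 1.58 were those of 82-kDa ChAT at the genes that handle retinoic acid.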

How the data were processed

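Peaks of 82-kDa ChAT and SATB1 were analysed in 4 libraries, 1 for each protein and treatment. The authors mapped reads to hg38 with BWA, used MACS with a threshold of 1e-05 to find peaks and left out those present in the input. The deposited score of a peak is 10 times the negative log10 of its p-value, and the lowest was 50.01. The files do not give the depth of each library.

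Gene bodies came from GENCODE 44, with intron numbers and starts from the MANE Select transcript. Only chromosomes 1 to 22, X and Y entered the counts (7460 and 6345 for 82-kDa ChAT after vehicle and Aβ1–42, 2884 and 5857 peaks for SATB1), since the gene regions lie there. Expected numbers were the region length times the peaks per determined base of that chromosome. Member regions that overlapped were merged, and a peak was counted once. A gene was expected to have a peak with the probability that a Poisson count is above 0.

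Alu matches were found with blastn 2.17.0 (e-value 1e-05) against a 287 nt Alu copy beside 1 SATB1 peak after Aβ1–42, a query taken from earlier work on these data (another copy could change the number of matches), and a peak was called multi-copy if over 50% of its 51-base words recurred among 194 sequences of the assembly. Hexamers and inverted repeats were searched on both strands. The genome used had no repeat masking, so a masked share was not computed. The tools were samtools 1.23.1, matplotlib 3.10.9, scipy 1.17.1, numba 0.67.0, pandas 2.3.3, pysam 0.24.0, numpy 2.4.6 and Python 3.11.15. Counting and sequence searches were tested on simulated data.

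The members, gene lists and alternatives were chosen with earlier results of these data known. The count of inverted repeats and that of peaks before the MANE Select start were added after seeing the data. Members with a peak in any list were named. Positions were given for RAR, RXR, THR and ROR peaks, shared peaks, the highest-scoring peak of each list and peaks within 2000 nt of a start. Genes of the other lists were named if they had peaks in at least 2 lists; 1 such gene and the sequences of 2 peaks are not reported here, and NUDC, RORA-AS1 and THRB-AS1 were named after their position was seen. Alternatives changed the region, the gene model, the score minimum, the expected density, the overlap distance and the repeats.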

Additional observations from a re-analysis of the deposited data

Results flagged for a closer look

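The count of peaks at nuclear receptor genes moved in opposite directions in the 2 proteins. From vehicle to Aβ1–42 the 82-kDa ChAT peaks changed by -2 (15 to 13) and the SATB1 peaks by 1 (6 to 7). The number of members with a peak changed by -2 for 82-kDa ChAT (10 to 8) and by 2 for SATB1 (6 to 8). With 1 library for each protein and treatment the difference was not tested. Each peak count lies within the Poisson interval of the same protein's count in the other treatment. These intervals were 8.4 to 24.7 and 6.92 to 22.2 for 82-kDa ChAT, and 2.2 to 13.1 and 2.81 to 14.4 for SATB1. No interval was computed for the number of members with a peak. Over all peaks on the chromosomes, 82-kDa ChAT also had fewer after Aβ1–42 (7460 to 6345) and SATB1 more (2884 to 5857).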

How the results depend on the processing

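Of 75 values recomputed under alternatives, 61 stayed within the counting interval or within 1.5 times the reported count. Among them were 34 of 36 ratios of observed to expected peaks. The intervals are wide and the alternatives reuse peaks of the main count, so this tally does not show that the values are stable. The change from 0.498 to 0.885 for SATB1 after Aβ1–42 with 50 kb flanks counted as staying. With peaks scored at or above the list median, SATB1 after vehicle fell to a ratio of 0 and 0 members, the Aβ1–42 share of SATB1 became 100.0%, and 5 members had a peak of 82-kDa ChAT after Aβ1–42 and 5 one of SATB1. Without Alu-matching peaks SATB1 after Aβ1–42 had a ratio of 0, 0 members and a share of 0%. Without multi-copy peaks, an alternative added after seeing the data, it had 2 members and a share of 25%. With the gene body only, 5 members had a peak of 82-kDa ChAT after vehicle and 5 of SATB1 after Aβ1–42; with 50 kb flanks, 11 had one of SATB1 after vehicle and 16 after Aβ1–42, whose ratio was 0.885. The number of peaks entering the count also changed under each of these settings, and what moved the values was not tested. Without RORA the 82-kDa ChAT ratio after Aβ1–42 was 0.73. Peaks carry no read counts here, so a site just under the caller's threshold in 1 list cannot be told from an absent one. No paired analysis was possible because there was 1 library for each protein and treatment, and no result comes from a test.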
